A study of Mus musculus with 6 samples.

Results

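Immediate early genes are switched on within minutes of a signal, before any new protein is made, and their transcripts are then lost quickly. Growth factors, stress, wounding and lack of oxygen reach them through MAP kinases, which can act on serum response factor with its partners and on CREB at the promoters of these genes. Their products include subunits of the transcription factor AP-1, zinc finger factors of the EGR family and phosphatases that switch the kinases off again, so that the level of these transcripts in a tissue can also depend on the minutes before it was collected. The 10 genes examined here were listed by name, with earlier results of these data known, and are 10 of the 55487 genes in the count table: Fos, Fosb, Jun and Junb (AP-1 subunits), Atf3 (a stress-induced factor related to them), Egr1 and Egr2 (EGR factors), Nr4a1 (an orphan nuclear receptor), Ier2 (a small nuclear protein) and Dusp1 (a phosphatase that inactivates MAP kinases).

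RNA was sequenced from 6 subcutaneous tumors grown in male BALB/c mice, bought at 4 weeks of age and injected under the skin with CT26.WT cells, a mouse colon carcinoma line, with the genotype given as WT. A volume of 100 µL was given into the tail vein, which held IFN-γ (100 ng/ml, repeated every 48 h) in the mice behind 3 of the tumors and PBS in those behind the 3 controls, for which no interval is stated. IFN-γ is the cytokine through which T cells and natural killer cells act on macrophages and tumor cells. The sources state neither the mouse behind a library nor the hour, the time since the last injection or the manner in which each tumor was removed, and p-values measure only the spread between these samples.

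The libraries held from 15759300 to 17559680 counts on genes, and 3 counts, taken as the floor, were worth 0.169 to 0.188 CPM (counts scaled to a common library total), which covers counting error only. Whole tumors were sequenced, so a larger number of cells of a type and more RNA per cell cannot be told apart. Of the markers of colon epithelium and carcinoma, Krt20 had 113 to 271 CPM and Krt18 6.41 to 10.4 CPM, Cdh1 had 1.28 to 2.46 CPM, whereas Epcam stayed under 1 CPM and Cdx2 had 0 counts in every tumor. Skin markers stood at 69.3 CPM in all in IFN-γ tumor 3 and at 2.75 to 12.3 CPM in the other 5 tumors. IFN-γ tumor 3 also had the highest sum of colon epithelium and carcinoma markers, at 283 CPM beside 123 to 188 CPM. Its sums of T cell (20.5 CPM), endothelial (185 CPM) and pericyte and smooth muscle markers (66.7 CPM) were the lowest. That library thus stood apart in more than skin.

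The promoters of the list were searched for letters that such signals can act through. Of the 10 genes, 8 had promoter windows in the RefSeq table of build GRCm38.p6, and the 250 bases before each start site were searched on both strands for the cyclic AMP response element TGACGTCA, bound by CREB and ATF proteins, for its core TGACG, which lies within it, for the AP-1 site TGANTCA and for the CArG box bound by serum response factor. TGACG was present in at least 1 window of 7 of the 8 genes (all but Jun) and in 17.7% of 32817 windows of all genes, TGACGTCA only in that of Dusp1 (1.55% of windows), the CArG box only in Egr2 (1.47%) and TGANTCA in none of the 8 (6.75%). Genes with several windows had more chances of a match, and base composition was not matched. A match is a run of letters, not a bound site. Egr1 and Ier2 had no window and were not searched. Bases farther than 250 before the start site were not searched either, so a site there would be missed. The 80-base stretches that follow lie wholly before the start site, are read 5′ to 3′ on the strand of the gene, and carry in capitals the letters named for each. They are shown for Fos, Fosb, Junb and Dusp1, and for Egr2 because of its CArG box. Atf3 and Nr4a1, which held TGACG on the other strand only, are not printed.
Fos, chr12:85473789-85473868, plus strand, TGACG starting 66 bases before the start site: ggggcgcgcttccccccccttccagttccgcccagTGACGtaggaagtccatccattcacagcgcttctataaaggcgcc
Fosb, chr7:19310061-19310140, minus strand, TGACG starting 60 bases before: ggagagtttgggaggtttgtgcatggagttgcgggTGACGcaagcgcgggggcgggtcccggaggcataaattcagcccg
Junb, chr8:84978810-84978889, minus strand, TGACG starting 106 bases before: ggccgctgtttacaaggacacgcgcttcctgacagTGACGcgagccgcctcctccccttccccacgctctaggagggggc
Dusp1, chr17:26508571-26508650, minus strand, TGACGTCA starting 143 bases before: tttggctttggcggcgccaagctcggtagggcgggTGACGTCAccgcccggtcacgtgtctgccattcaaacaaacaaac
Egr2, chr10:67537762-67537841, plus strand, CArG box starting 72 bases before: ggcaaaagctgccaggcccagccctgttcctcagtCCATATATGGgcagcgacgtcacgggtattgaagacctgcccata

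Fos and Fosb, whose promoter stretches with TGACG are printed above and whose products pair with Jun proteins to form AP-1, differed more between tumors of the same group than between the groups. Fos had 69.5, 43.1 and 177 CPM in control tumors 1, 2 and 3, and the IFN-γ tumors, in the same order of their numbers, had 148, 230 and 80.2 CPM. Control tumor 3 and IFN-γ tumors 1 and 2 were high, the other 3 tumors were low, and the groups overlapped. The highest control was 4.11-fold above the lowest, and the highest IFN-γ tumor 2.86-fold above the lowest. The 95% Poisson intervals, which cover counting error only, were 40.1 to 46.3 CPM for control tumor 2 and 171 to 183 CPM for control tumor 3. The fitted difference between the groups was smaller, with a log2 fold change of 0.66 (SE 0.52, 95% interval -0.53 to 1.85, adjusted p = 0.73, edgeR's quasi-likelihood test). Single tumors moved this value widely, to 1.43 without control tumor 3, to 0.24 without IFN-γ tumor 2 and to 0.31 without control tumor 2, with no fit passing the threshold.

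Fosb was high in the same 3 tumors. It had 39.3, 20.6 and 90.5 CPM in the controls and 79.8, 96.9 and 36.4 CPM in the IFN-γ tumors. Again control tumor 3 lay among the IFN-γ tumors and IFN-γ tumor 3 among the controls. The log2 fold change was 0.50 (SE 0.51, adjusted p = 0.80, edgeR's quasi-likelihood test), and it was 0.13 without control tumor 2 and 1.24 without control tumor 3. Although Fos spanned 5.32-fold over the 6 tumors and Fosb 4.70-fold, the ratio of Fosb to Fos counts stayed between 0.422 and 0.566. This ratio was examined after the values had been seen, and both of its genes were counted in the same 6 libraries.

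**Figure D1:**
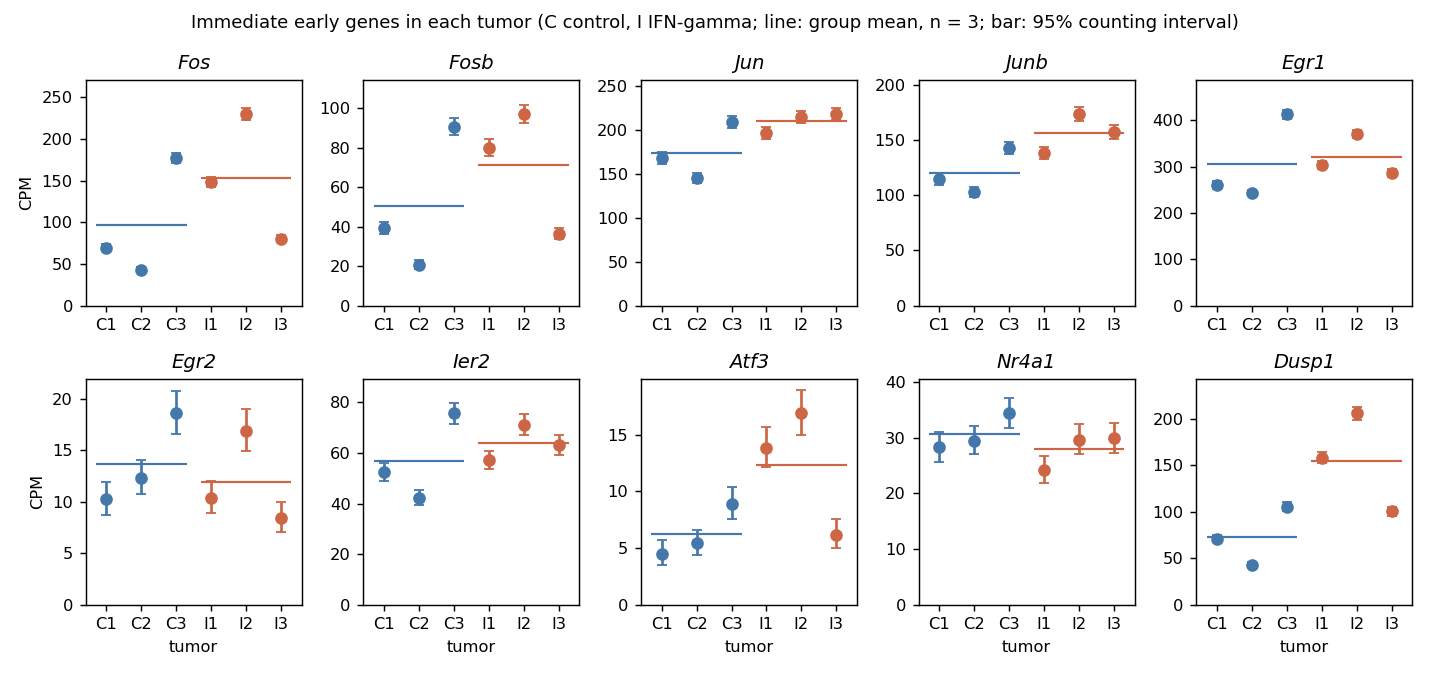
Level of each of the 10 immediate early genes in CPM (vertical axes, starting at 0) in control tumors C1 to C3 and IFN-γ tumors I1 to I3, with 95% Poisson counting intervals as bars and group means (n = 3) as lines. Fos, Fosb, Egr1, Atf3 and Dusp1 were highest in C3, I1 and I2, and the groups overlapped in every panel.

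Transcripts of Jun and Junb, whose proteins bind DNA with or without a FOS partner, varied much less than those of Fos and Fosb. Jun had 168, 145 and 209 CPM in the controls and 196, 214 and 217 CPM in the IFN-γ tumors. Only control tumor 3 lay within the IFN-γ range, and the log2 fold change was 0.27 (SE 0.13, adjusted p = 0.52, edgeR's quasi-likelihood test). Junb had 115, 103 and 142 CPM in the controls and 138, 173 and 157 CPM in the IFN-γ tumors. Control tumor 3 was slightly above IFN-γ tumor 1, and the other controls were below all IFN-γ tumors. The log2 fold change of Junb was 0.38 (SE 0.13, 95% interval 0.077 to 0.69, unadjusted p = 0.020, adjusted p = 0.39, edgeR's quasi-likelihood test), so that it did not pass over all genes. The ratio of Junb to Jun counts stayed between 0.683 and 0.809, whereas the ratio of Fos to Jun ran from 0.298 in control tumor 2 to 1.07 in IFN-γ tumor 2.

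Dusp1, the phosphatase by which MAP kinase signaling limits itself, and Atf3 had the largest fitted differences between the groups. Dusp1 had 71.1, 42.7 and 105 CPM in the controls and 158, 206 and 101 CPM in the IFN-γ tumors. IFN-γ tumors 1 and 2 were above all controls, and the groups met only at IFN-γ tumor 3 and control tumor 3, whose counting intervals (95.8 to 106 and 101 to 110 CPM) overlapped. Its log2 fold change was 1.08 (SE 0.34, 95% interval 0.31 to 1.85, unadjusted p = 0.012, adjusted p = 0.35, edgeR's quasi-likelihood test). With no filter on low counts the adjusted p of Dusp1 was 0.015 in edgeR, the only one of 15 alternative fits in which it passed, and the others ran from 0.053 to 1.

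Atf3, induced by many kinds of stress and able to repress or activate its targets, had the second largest difference. It had 4.50, 5.41 and 8.86 CPM in the controls and 13.8, 16.9 and 6.18 CPM in the IFN-γ tumors, from 72 to 276 counts. IFN-γ tumor 3 fell within the control range, while IFN-γ tumors 1 and 2 lay above it. The log2 fold change was 0.97 (SE 0.38, 95% interval 0.097 to 1.85, unadjusted p = 0.033, adjusted p = 0.44, edgeR's quasi-likelihood test). The call changed with IFN-γ tumor 3, without which the value was 1.28 (adjusted p = 0.040, edgeR), the 1 fit of the 15 in which Atf3 passed the threshold, the others running from 0.14 to 1. The value of Atf3 was 1.30 without control tumor 3 and 0.67 without IFN-γ tumor 2. The markers of macrophages and adipocytes are set beside these 2 genes. Macrophage markers summed to 1585, 1833 and 1724 CPM in the controls and to 2497, 2765 and 1816 CPM in the IFN-γ tumors, and adipocyte markers to 119, 119 and 162 CPM and to 173, 227 and 184 CPM. The median log2 fold change was 0.42 over the macrophage markers and 2.17 over the adipocyte markers, so single adipocyte markers differed more than their sums. Of the macrophage markers 4 of 6, and of the adipocyte markers 7 of 8, were higher in the IFN-γ group at an unadjusted p under 0.05 (edgeR). The same held for 5.74% of all genes tested, and 0 passed the adjusted threshold in either list. The part of these cells in the values of Dusp1 and Atf3 was not tested.

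Transcripts of the EGR factors, whose zinc fingers bind GC-rich promoter sites, showed no difference beyond the spread. Egr1, which had the highest median per exon length of the 10 genes, had 260, 243 and 413 CPM in the controls and 303, 370 and 286 CPM in the IFN-γ tumors. Its highest and lowest values were both in the control group, and the log2 fold change was 0.067 (SE 0.20, 95% interval -0.39 to 0.52, adjusted p = 0.95, edgeR's quasi-likelihood test). Egr2 had 10.3, 12.3 and 18.6 CPM in the controls and 10.4, 16.9 and 8.47 CPM in the IFN-γ tumors. Control tumor 3 and IFN-γ tumor 2 were high, and the mean was 13.7 ± 4.34 CPM in the controls and 11.9 ± 4.39 CPM in the IFN-γ group (SD, n = 3 each). The log2 fold change of Egr2 was -0.20 (SE 0.30, adjusted p = 0.86, edgeR's quasi-likelihood test).

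Ier2 and Nr4a1 complete the list. Ier2 had 52.5, 42.3 and 75.7 CPM in the controls and 57.2, 71.2 and 63.2 CPM in the IFN-γ tumors. The 3 IFN-γ values lay inside the control range (log2 fold change 0.17, SE 0.19, adjusted p = 0.83, edgeR's quasi-likelihood test). Nr4a1, which antigen receptor signals induce in lymphocytes and which many other tissues also express, had 28.3, 29.5 and 34.3 CPM in the controls and 24.2, 29.6 and 29.9 CPM in the IFN-γ tumors. It was the steadiest of the 10 genes, with 1.42-fold between the highest and the lowest tumor, and did not follow the order of Fos (log2 fold change -0.14, SE 0.12, adjusted p = 0.76, edgeR's quasi-likelihood test).

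Counted together, 0 of the 10 genes passed the threshold (adjusted p under 0.05), as against 0.112% of the 15114 genes tested. All 10 had passed the filter on low counts. An unadjusted p under 0.05 was found for 3 of them, all higher (Dusp1, Atf3 and Junb), and for 5.74% of all genes tested as higher and 4.44% as lower. DESeq2 and limma-voom, other tools for count data, also called 0. The fitted log2 fold change was above 0 for 8 of the 10, with a median of 0.33, and above 0 for 7623 of all genes tested, with a median of 0.0015. Every IFN-γ tumor was above every control in 0 of the 10 genes, as against 7.62% of the genes tested. The intervals were wide for Fos and Fosb, reaching from below 0 to above 1.6 on the log2 scale.

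**Figure D2:**
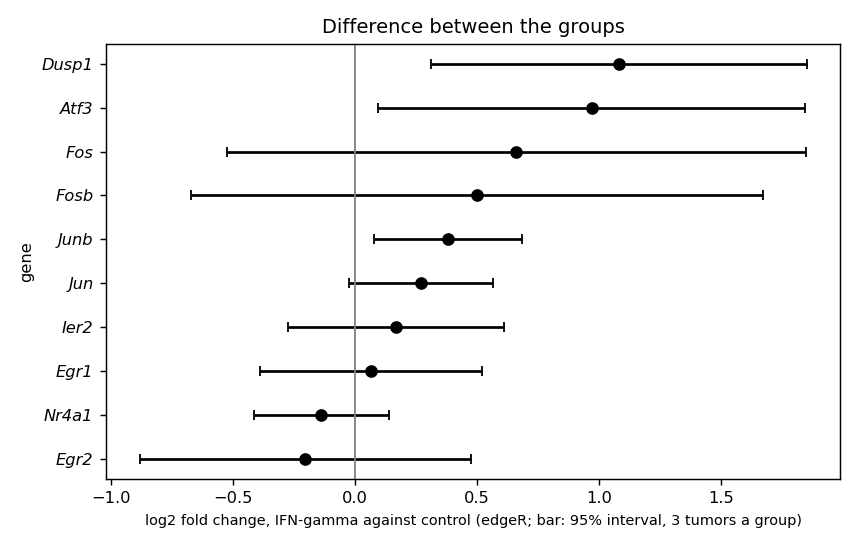
Fitted log2 fold change of each gene between the IFN-γ and the control group (horizontal axis) with its 95% interval from edgeR, 3 tumors a group. Dusp1, Atf3 and Junb have intervals above 0, but none of the 10 passed the adjusted threshold, and the intervals of Fos and Fosb are the widest of the 10.

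The spread between tumors of one group was large for most of these genes. Over the 3 controls, the SD of log2 CPM was 1.07 for Fosb, 1.04 for Fos, 0.65 for Dusp1 and 0.50 for Atf3. The median over the 10 genes was 0.43, beside 0.11 over the 11331 genes with a mean of at least 5 CPM. Of those genes, 99.6% had a smaller control SD than Fos and 99.6% a smaller one than Fosb. Nr4a1, at 0.15, exceeded only 64.9% of them, whereas Jun, at 0.27, exceeded 89.4% and Junb, at 0.24, exceeded 86.6%. In the IFN-γ group the SDs of Fos, Fosb and Atf3 were 0.76, 0.75 and 0.76, whereas that of Jun was 0.081, below the median of 0.13 over the genes of at least 5 CPM. Over all 6 tumors the log2 range had a median of 0.98 over the 10 genes and of 0.37 over the genes of at least 5 CPM.

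**Figure D3:**
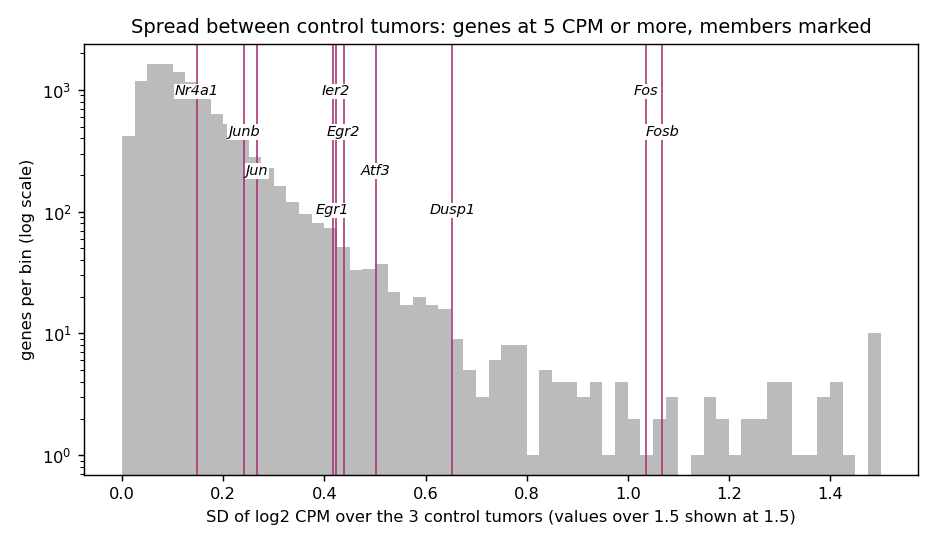
SD of log2 CPM over the 3 control tumors (horizontal axis) for 11331 genes with a mean of at least 5 CPM, as counts of genes per bin on a log axis, with the 10 immediate early genes marked by lines and values over 1.5 drawn at 1.5. Fos and Fosb sit in the far right tail at 1.04 and 1.07, and Nr4a1 at 0.15 sits among the bulk of genes.

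The same tumors were high for most of the 10 genes. Control tumor 3 and IFN-γ tumor 2 were among the 3 highest tumors for 10 of 10 genes each, and control tumor 1 for 0. Control tumor 2 was the lowest tumor for 7 of the 10. How often these tumors held the same ranks over all genes is not given here, so these counts are a description only. Relative to the mean of the controls, the median log2 ratio over the 10 genes was 0.48 in control tumor 3, 0.46 in IFN-γ tumor 2, 0.20 in IFN-γ tumor 1 and 0.015 in IFN-γ tumor 3. It was -0.10 and -0.27 in control tumors 1 and 2. Over the genes of at least 5 CPM the same median lay between -0.012 and 0.018 in every tumor.

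**Figure D4:**
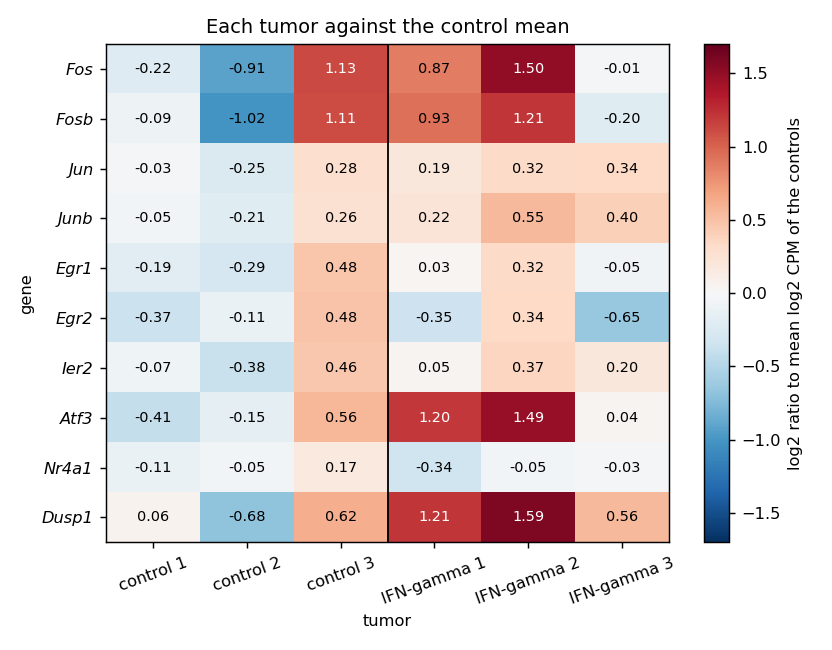
Log2 ratio of each gene in each tumor to its mean log2 CPM in the controls (color and printed value), genes in rows and tumors in columns, controls left of the line. Control tumor 3 is above 0 for all 10 genes, IFN-γ tumors 1 and 2 are above 0.8 for Fos, Fosb, Atf3 and Dusp1, and IFN-γ tumor 3 is near 0 for Fos and Atf3.

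The 3 tumors in which Fos was highest (control 3, IFN-γ 1 and IFN-γ 2) were also the 3 highest for 5 of the 10 genes, Fos included, and for 8.03% of all genes tested. Markers of other cells had the same high tumors in part. All 6 skeletal muscle markers, among them Acta1 and Ckm, had the same 3 highest tumors, and their sum was 862 CPM in control tumor 3, 350 CPM in IFN-γ tumor 1 and 456 CPM in IFN-γ tumor 2, as against 132 to 217 CPM in the others. So did 4 of 6 fibroblast markers (Col1a1, Col1a2, Col3a1 and Pdgfra), with sums of 4913 to 5279 CPM in these 3 tumors and 3359 to 4055 CPM in the others, and 3 of 5 T cell markers. Neutrophil markers summed to 29.6 to 47.5 CPM, with 0 of 5 tested markers following this order, for macrophage markers it was 1 of 6 and for adipocyte markers 0 of 8. The part of muscle, stroma or any other cells in the levels of the immediate early genes was not tested.

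By a rule of likeness, the 5 genes outside the list whose log2 CPM over the 6 tumors was most like the standardized mean of the 10 genes were Tma7-ps, Cnot2, Slc38a4, Ccl9 and Cdc42, with Pearson's r from 0.977 to 0.980 among 11321 candidates. Of these, Ccl9, a chemokine of myeloid cells, had the widest range, with 57.7, 35.6 and 105 CPM in the controls and 74.2, 112 and 65.9 CPM in the IFN-γ tumors. Cdc42, a small GTPase of the cytoskeleton, ranged only from 431 to 532 CPM. Within the list, r with that mean was 0.97 for Fos, 0.96 for Egr1 and 0.95 for Ier2, which are part of the mean, and 0.30 for Nr4a1. With 6 points and so many candidates, high values of r are a description only.

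AP-1 is a dimer, so the levels of its subunits were set side by side per length, as CPM per kilobase of annotated exon. Jun had 54.4 ± 10.2 in the controls and 65.7 ± 3.61 in the IFN-γ group, Junb 52.1 ± 8.88 and 67.9 ± 7.70, and Fos 41.1 ± 30.2 and 65.0 ± 31.8 (CPM per kb, SD, n = 3 each). Fosb ranged from 3.31 to 15.5 CPM per kb over the 6 tumors and Atf3 from 2.09 to 7.83, and both were lower than these 3 in every tumor. The length was the union of all annotated exons, 6243 bases for Fosb and 9680 for Fosl2, as against 2352 for Fos. Where the RNA present is shorter than this union, the level and the share of a gene come out too low. The lengths of the transcripts present were not tested. Fosl1, which encodes the FOS-related subunit FRA1 that lasts longer after a signal, stood at 59.0 ± 3.50 CPM per kb in the controls and 50.9 ± 12.9 in the IFN-γ group. Fos and Fosl1 changed places from tumor to tumor, Fos being higher in control tumor 3 and in IFN-γ tumors 1 and 2. As a share of the 8 AP-1 transcripts, Fos and Fosb made up 10.1% in control tumor 2 and 30.6% in IFN-γ tumor 2, Fosl1 and Fosl2 made up 30.9% and 12.8% of the same 2 tumors, and Jun, Junb and Jund together stayed between 51.7% and 62.4% in all 6.

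**Figure D5:**
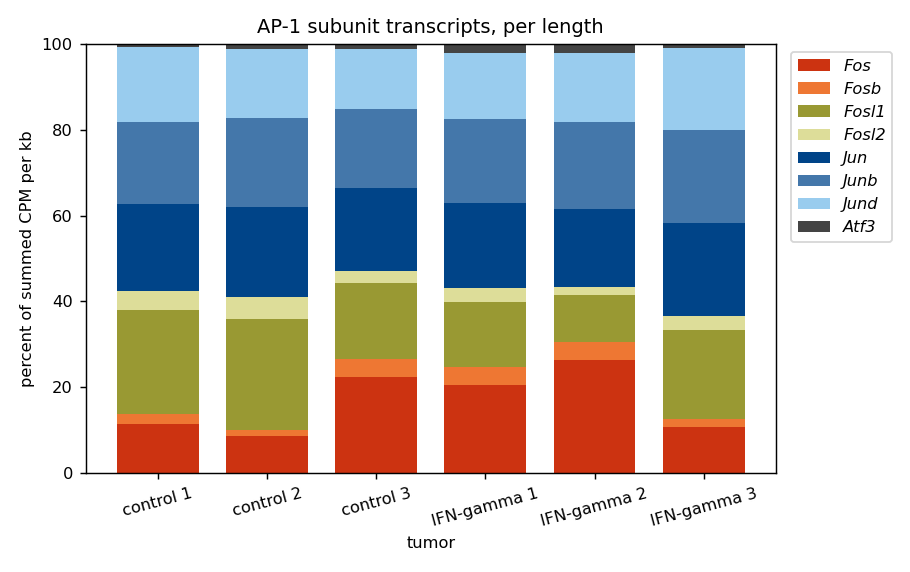
Share of each AP-1 subunit transcript in the summed CPM per kilobase of 8 subunits (vertical axis, percent) in each tumor. Fos takes 22.4%, 20.5% and 26.4% in control tumor 3 and IFN-γ tumors 1 and 2 and 8.53% to 11.4% in the other tumors, while Jun stays between 18.2% and 21.7%.

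In GENCODE M21 (build GRCm38, equivalent to the mm10 of the labels), Fos (ENSMUSG00000021250) lies at chr12:85473890-85477273 on the plus strand, Fosb (ENSMUSG00000003545) at chr7:19302696-19310051, Dusp1 (ENSMUSG00000024190) at chr17:26505590-26562128 and Atf3 (ENSMUSG00000026628) at chr1:191170296-191218039, the last 3 on the minus strand. Jun and Ier2 have 1 exon, so that reads from unspliced RNA or DNA cannot be told from those of their messenger RNA. Junb and Fosb each also have an annotated transcript of 1 exon, for which the same limit holds. Junb shares 173 exon bases with Prdx2, Jun shares 232 with the antisense RNA Junos and Dusp1 shares 11 with Ergic1, each on the opposite strand. Strandedness is not given in the sources used here, and reads of these stretches could not be assigned to a strand. Prdx2 had 18677 counts over the 6 tumors and Junos 1084.

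A longer list of early response genes was examined in the same way. Of 46 listed genes, 44 were tested, 0 passed the adjusted threshold, and 8 higher and 5 lower ones had an unadjusted p under 0.05 (edgeR), with a median log2 fold change of 0.11. These counts, and those of the lists that follow, are to be read against the 5.74% of all genes that were higher and the 4.44% that were lower by the same rule. The 4 most abundant, which by rule are named, were Mcl1 (a survival factor), Zfp36l2 (an RNA decay factor), Dusp6 (a MAP kinase phosphatase) and Btg1 (a growth inhibitor), with log2 fold changes of 0.19, 0.21, 0.060 and 0.044. The 3 highest tumors were those of Fos for 8 of the 44, as against 8.03% of all genes tested. Among these 8, picked after their values were seen, Zfp36, which destabilizes AU-rich transcripts, had 67.3, 67.1 and 136 CPM in the controls and 130, 171 and 89.9 CPM in the IFN-γ tumors. Ccn1, a secreted matrix protein induced by serum, had 50.9, 47.4 and 119 CPM in the controls and 122, 151 and 68.1 CPM in the IFN-γ tumors. In both, as in Fos, control tumor 3 and IFN-γ tumors 1 and 2 were the high ones. Jund, the JUN member that is expressed without a stimulus, is named outside the rule. It had 57.4 to 77.8 CPM in the controls and 79.8 to 100.1 CPM in the IFN-γ tumors (log2 fold change 0.41, adjusted p = 0.37, edgeR). Its groups did not overlap, and 7.62% of all genes tested had every IFN-γ tumor above every control. In this list so did Klf2, Zfp36l2, Arc, Gadd45b, Ccn2 and Nfkbia. For Nr4a2, Ier5, Ptgs2, Gadd45a and Plk2 every IFN-γ tumor was below every control. The share of all genes tested with that downward order is not given here, so these names are a description only.

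The kinases and factors upstream of these genes were examined at the RNA level, where phosphorylation cannot be seen. Of 33 kinases, GTPases and transcription factors, 0 passed the threshold and 2 had an unadjusted p under 0.05 (edgeR), both lower in the IFN-γ group, with a median log2 fold change of -0.019. Mapk3, a MAP kinase, had a log2 fold change of 0.063. Mef2a and Elk3, a transcription factor and a partner of serum response factor, had log2 fold changes of -0.083 and -0.26. Srf itself ranged from 44.2 to 48.1 CPM. The MAP kinase phosphatases other than Dusp1 gave 0 of 9 past the threshold with 1 at an unadjusted p under 0.05, and the most abundant ones, Dusp6, Dusp4, Dusp7 and Dusp10, had log2 fold changes between -0.21 and 0.060. Nab1 and Nab2, which repress EGR factors, had log2 fold changes of -0.16 and 0.076.

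Signs of stress that could accompany collection were listed as well. Of 9 heat shock genes 0 passed the threshold, 1 had an unadjusted p under 0.05 (edgeR) and the median log2 fold change was -0.025. Hspa8, Hsp90aa1, Hspd1 and Hsph1, the most abundant, had log2 fold changes of 0.27, -0.029, -0.13 and -0.032. The 3 highest tumors were those of Fos for 0 of the 9, as against 8.03% of all genes tested. With 9 genes, a count of 0 is a description only. The 8 glucocorticoid targets were listed with earlier results of these data known, so counts in this list are a description only. At an unadjusted p under 0.05 (edgeR), 4 were higher and 1 was lower. Of the 8, 2 were higher past the threshold in the IFN-γ group (adjusted p = 0.023 and 0.0062, edgeR), as were 0.0794% of all genes. These were Tsc22d3, an anti-inflammatory leucine zipper protein, with 75.5, 56.4 and 59.9 CPM in the controls and 125, 137 and 151 CPM in the IFN-γ tumors, and Per1, also a clock gene, with 20.3, 19.9 and 15.8 and with 62.2, 66.2 and 47.8 CPM. Of 15 alternative fits, Tsc22d3 passed in 9 and Per1 in 12. Without control tumor 2 or IFN-γ tumor 1 neither passed, Tsc22d3 was also lost without control tumor 3, without IFN-γ tumor 2 and with the replicate block (adjusted p = 0.18, edgeR), and both were lost when a log2 fold change of at least 1 was tested. Dusp1 is a known target of the glucocorticoid receptor too. IFN-γ tumor 3 was the lowest IFN-γ tumor for Dusp1 and Per1 and the highest for Tsc22d3. The same 3 highest tumors as for Fos were found for 3 of the 8 targets (Zbtb16, Sgk1 and Pdk4) and for 8.03% of all genes tested. Whether hormone, time or handling at collection differed between the tumors was not tested.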

How the data were processed

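RNA-seq was performed on 6 subcutaneous tumors, 3 in each group, and all were used. The authors deposited whole-number read counts per Ensembl gene, not normalized, and the labels name HISAT2 and build mm10. The counting program, its annotation and strandedness are not given in the sources used here. Of the identifiers, 99.4% are in GENCODE M21.
From the counts, CPM values with TMM factors were computed and tested with edgeR 4.0.16 (R 4.3.3) by the quasi-likelihood test once edgeR's filterByExpr had removed rarely counted genes. P-values were adjusted by Benjamini-Hochberg over all genes tested, with a threshold of 0.05. The SE was the log2 fold change divided by the square root of F. Log2 CPM used a prior count of 0.5. Levels per length were divided by the union of annotated exons. The alternatives were DESeq2 1.42.0, limma 3.58.1 (voom), other scaling factors, filters, a fold threshold, a replicate block and fits that each left out 1 tumor.
Genes, lists and tests were chosen with earlier results of these data known. The named genes were the 10 genes, the listed genes past the threshold, otherwise up to 4 per list by mean CPM, and the 5 genes most like the list. A gene that this rule names among the upstream kinases is not reported here. Fits were also run on simulated counts with 200 changed genes, and the outcome is not given here. All libraries differed from each other (correlations of log2 CPM from 0.966 to 0.992).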

Additional observations from a re-analysis of the deposited data

How the results depend on the processing

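Of the 10 genes, 0 passed the threshold in all 6 tumors, and 1 passed with no filter on low counts (Dusp1, log2 fold change 1.08). Dropping a tumor gave 0 or 1, the 1 being Atf3 at 1.28 without IFN-γ tumor 3. Of 150 comparisons of a single gene with its main value, 143 held in direction and call, and 2 passed only under the alternative, as given here. The remaining 5 reversed, all for values near 0 and all when a tumor was left out. Egr1 was at -0.035 without control tumor 1, -0.074 without control tumor 2 and -0.053 without IFN-γ tumor 2, Egr2 at 0.069 without control tumor 3 and Ier2 at -0.0049 without control tumor 2. With a tumor left out, Egr1 ran from -0.074 to 0.34, Egr2 from -0.54 to 0.069, Ier2 from -0.0049 to 0.42 and Atf3 from 0.67 to 1.30. Leaving out control tumor 3 gave the highest log2 fold change for 9 of the 10 genes, among them Fos at 1.43 (adjusted p = 0.36, edgeR) and Fosb at 1.24, and Fos was lowest without IFN-γ tumor 2, at 0.24.
Over the whole table, 17 genes passed, 12 higher and 5 lower. DESeq2 gave 191 (118 and 73), no filter 220 (150 and 70), library size only 11 (7 higher), limma-voom 3 lower and a log2 fold change of at least 1 gave 4 (3 and 1). Leaving out one tumor gave from 6 to 493 genes, from 4 to 381 higher and from 2 to 112 lower, the most without IFN-γ tumor 3. Of the other listed pathway genes 2 passed, with 5 under DESeq2, 5 with no filter, 0 at a log2 fold change of at least 1 and from 0 to 17 when a tumor was left out. The cause was not tested. The replicate block gave 7 genes (5 and 2), 1 listed pathway gene and 0 of the 10. Deviations of tumors with the same number correlated at -0.34, 0.082 and -0.22, and the number was not used as a pairing. A prior count of 2 left the spread of the 10 genes as it was. Depth limited Atf3 and Egr2 most, with as few as 72 and 137 counts.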

Other observations

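Known AP-1 targets were also listed. Of 18, 17 were tested, 0 passed the threshold, and 1 higher and 2 lower genes had an unadjusted p under 0.05 (edgeR), with a median log2 fold change of -0.16. Vim, Spp1, Ccnd1 and Cd44, the most abundant, had log2 fold changes of 0.12, -0.28, -0.12 and -0.39. Cd44, a receptor for hyaluronan, had 575, 554 and 550 CPM in the controls and 402, 419 and 458 CPM in the IFN-γ tumors. It did not pass the threshold (adjusted p = 0.17, edgeR). Its IFN-γ tumors were all below its controls, and the share of all genes with that order is not given here. Il6, at 0.742 to 2.44 CPM, was the 1 target of the 17 whose 3 highest tumors were those of Fos, as against 8.03% of all genes tested.
Genes of the integrated stress response, a pathway that can induce Atf3, had fitted values below 0 in 8 of 9 genes tested. Over the whole table, values were above 0 for 7623 of the 15114 genes tested. The part of this pathway in the values of Atf3 was not tested. Of the 9 stress response genes, 0 passed the threshold and 3 lower and 1 higher gene had an unadjusted p under 0.05 (edgeR), with a median log2 fold change of -0.22. Hspa5, Atf4 and Asns, the most abundant, had log2 fold changes of -0.041, -0.10 and -0.22, and Herpud1 of 0.24.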
